A study of Mus musculus with 6 samples.

Results

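Sympathetic neuron genes were examined in mouse aorta as a set of 46 genes, each found by its NCBI identifier among the 18191 genes measured. The set holds genes of noradrenaline synthesis, of ganglion identity, of synaptic vesicles, of the neuronal cytoskeleton and of the nicotinic receptor. It was selected on measured values, because earlier results of these data had shown such genes to be high in a single library, Npr1+/- 1. Levels in that library, and comparisons of the genotypes that include it, are therefore given as a description and support nothing by themselves. RNA of the aorta of male mice was sequenced in 3 libraries of wild type (WT) and 3 libraries of Npr1+/- mice, which are heterozygous for a CRISPR-Cas9 knockout of Npr1, a receptor for natriuretic peptides. The study made this comparison to look for genes tied to the ageing of vessels. The knockout is not restricted to a cell type, and neither age, strain nor treatment is given for the 6 samples. Nothing in the labels says that the libraries of a group came from separate animals, so p-values measure only the spread between these libraries.

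Postganglionic sympathetic neurons have their cell bodies, with most of their mRNA, in ganglia beside the spine and on the great vessels, and their axons end in the outer layer of arteries. They make noradrenaline from tyrosine with the enzymes Th, Ddc and Dbh, load it into vesicles, release it together with the peptide Npy, and take it up again with Slc6a2. The signal from the spinal cord reaches them through nicotinic receptors built from Chrna3 and Chrnb4, and they carry receptors for growth factors of the target tissue, such as Ngfr and Ret. In RNA of a whole tissue, fewer cells of a type and less RNA per cell cannot be told apart.

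The libraries held 13510970 to 16664343 estimated counts. A gene was taken as found in a library at 3 counts or more, which correspond to 0.180 to 0.222 CPM (counts scaled to a common library size) in these libraries. Of the 46 genes, 45 were found in Npr1+/- 1. The number was 25, 27 and 26 in WT 1, 2 and 3, and 31 and 28 in Npr1+/- 2 and 3. Together the 46 genes took 0.1404% of the counts of Npr1+/- 1 (exact binomial 95% interval 0.1385 to 0.1424%, which covers counting error only). They took 0.01955, 0.01814 and 0.02015% in WT 1, 2 and 3, and 0.01899 and 0.02049% in Npr1+/- 2 and 3. In this sum the other libraries lay close together, and Npr1+/- 1 stood apart from its own group as well as from WT. Uchl1 and Rab3a, high in all libraries, weighed heavily in it, with 986 and 456 of the 2641 counts of WT 1. The 26 genes at least 10-fold higher in Npr1+/- 1, described below, spread more widely in the other libraries. They summed to 5.08 to 11.3 CPM there and to 932 in Npr1+/- 1.

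**Figure D1:**
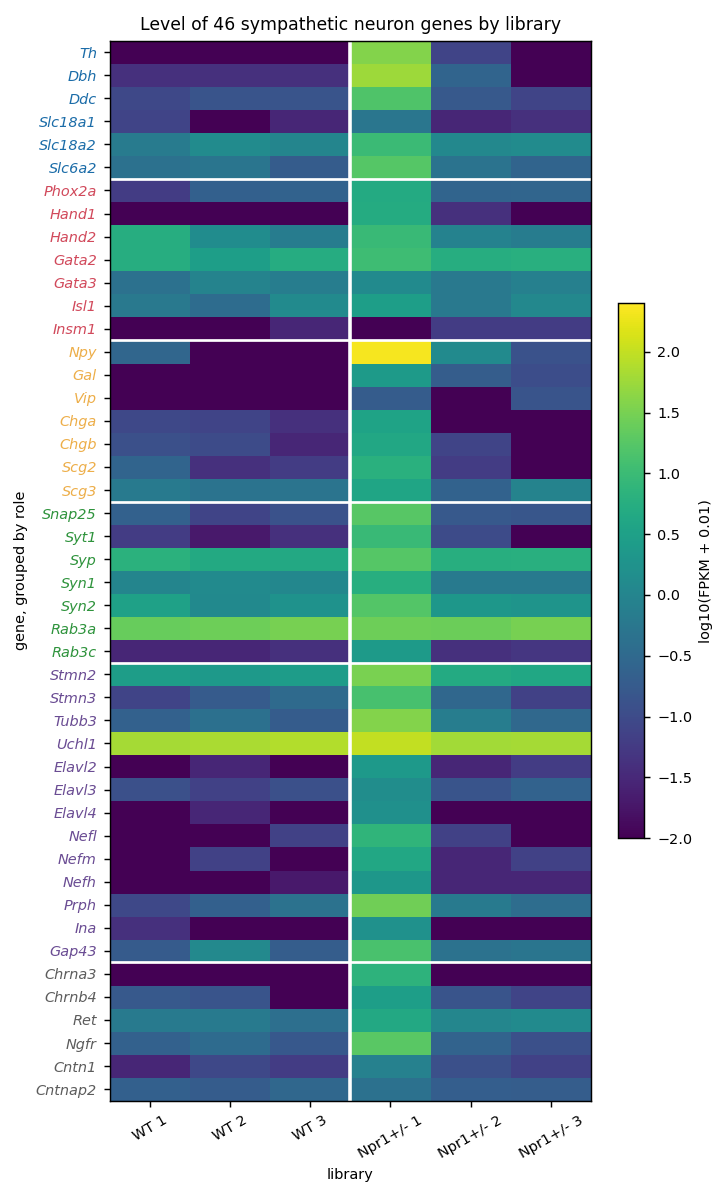
Level of the 46 genes in the 6 libraries, as log10 of FPKM plus 0.01, with the genes in rows coloured and grouped by role and the darkest colour for an FPKM of 0. The column of Npr1+/- 1 is bright in most rows, while Rab3a and Uchl1 are bright in all 6 libraries and Insm1 is dark in Npr1+/- 1.

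Counts of a gene are given below in the order WT 1, 2 and 3, followed by Npr1+/- 1, 2 and 3. The enzymes of noradrenaline synthesis were close to absent in every library except Npr1+/- 1. Th, tyrosine hydroxylase, the rate-limiting enzyme (NCBI gene 21823, chr7:142892779-142899995 in GRCm38), had 0, 0 and 0 counts in WT and 987, 2 and 0 in Npr1+/-. Dbh, which turns dopamine into noradrenaline (NCBI gene 13166, chr2:27165507-27183204), had 1, 1 and 1 counts in WT and 1856, 9 and 0 in Npr1+/-. For Ddc, the decarboxylase between these steps, the counts were 2, 4 and 4 in WT and 432, 5 and 2 in Npr1+/-. In all 3 genes the WT libraries overlapped with Npr1+/- 2 and 3, and Npr1+/- 1 supplied 98.6 to 99.8% of the summed CPM of its group.

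The transporters of noradrenaline were found outside Npr1+/- 1 as well. Slc6a2, which takes noradrenaline back into the axon, had 35.2, 50.3 and 18.1 counts in WT and 1557, 46.8 and 23.6 in Npr1+/-. Slc18a2, the vesicular monoamine transporter of neurons, had 35, 79 and 64 counts in WT and 559, 67 and 78 in Npr1+/-. In CPM, Npr1+/- 1 was 35.6 times the highest other library for Slc6a2 and 8.12 times for Slc18a2. Slc18a1, the vesicular transporter typical of chromaffin cells, reached 24 counts in Npr1+/- 1 and 0 to 3 counts elsewhere. For both transporters of the neuron, Npr1+/- 2 and 3 lay within the range of the WT counts.

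The promoters of the set were searched for the cyclic AMP response element TGACGTCA, a motif known from genes that respond to cyclic AMP, which reads the same on both strands. The windows ran from 250 bases before to 50 bases after the RefSeq start (GRCm38.p6), and a gene may have several. They were at hand for 35 of the 46 genes. The motif occurred in a window of 5 of the 35 genes (14.3%), and of 549 of all 27025 genes with a window (2.03%). The 5 genes were Th, Slc18a2, Chgb, Scg2 and Syn1. A stretch of 120 bases around each match is printed 5′ to 3′ on the strand of the gene, with the motif in capitals, to show where the match lies in each of them. The stretches are chr7:142899996-142900115, minus strand (Th), chr19:59260782-59260901, plus strand (Slc18a2), chr2:132781522-132781641, plus strand (Chgb), chr1:79440027-79440146, minus strand (Scg2) and chrX:20921010-20921129, minus strand (Syn1).
Th: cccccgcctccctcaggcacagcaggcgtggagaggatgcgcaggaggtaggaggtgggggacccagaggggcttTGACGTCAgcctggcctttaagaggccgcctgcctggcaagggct
Slc18a2: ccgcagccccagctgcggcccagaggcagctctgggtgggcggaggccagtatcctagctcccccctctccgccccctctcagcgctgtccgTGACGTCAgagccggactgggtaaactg
Chgb: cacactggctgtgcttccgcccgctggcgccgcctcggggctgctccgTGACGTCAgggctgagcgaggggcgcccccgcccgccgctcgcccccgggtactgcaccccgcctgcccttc
Scg2: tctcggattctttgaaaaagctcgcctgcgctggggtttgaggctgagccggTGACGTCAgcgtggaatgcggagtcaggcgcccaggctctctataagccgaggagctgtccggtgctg
Syn1: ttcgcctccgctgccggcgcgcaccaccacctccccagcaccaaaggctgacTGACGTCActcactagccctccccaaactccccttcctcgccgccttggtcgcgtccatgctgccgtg
The motif began 45 bases before the start in Th, 4 in Slc18a2, 72 in Chgb, 68 in Scg2 and 159 in Syn1. The shorter form TGACG, which lies within TGACGTCA and was searched on both strands, occurred in 16 of the 35 genes (45.7%) and in 23.0% of all genes. The E-box CATCTG occurred in 4 genes of the set (11.4%, against 19.2% of all) and the GATA motif AGATAA in 7 (20%, against 12.7%), again on both strands. Such a match is a description of letters and says nothing on binding in these samples. All 5 genes were highest in Npr1+/- 1, as were 44 of the 46.

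Of the 7 transcription factors of the sympathetic lineage, Hand1 and Phox2a stood out in Npr1+/- 1, and 4 others were found in all libraries. Hand1 had 0, 0 and 0 counts in WT and 141, 1 and 0 in Npr1+/-. Phox2a, which sets the noradrenergic phenotype, had 1.07, 5.20 and 6.25 counts in WT and 115, 6.40 and 6.38 in Npr1+/-. Gata2, Gata3, Isl1 and Hand2 are also used by other cells of vessels, blood or fat, and they differed less. Gata2 had 245, 150 and 291 counts in WT and 507, 284 and 302 in Npr1+/-. Hand2 had 165, 48 and 26 counts in WT and 306, 32 and 24 in Npr1+/-, so that WT 1 was second to Npr1+/- 1. Npr1+/- 1 reached 2.46 times the highest other library for Isl1 and 1.47 times for Gata3. Insm1, a factor of neuroendocrine differentiation, was the only gene of the 46 not found in Npr1+/- 1, with 0 counts there and at most 2.26 elsewhere.

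Among the peptides and granule proteins, Npy had the highest FPKM of the whole set in Npr1+/- 1. Npy, the peptide stored with noradrenaline (NCBI gene 109648, chr6:49822710-49829507), had 2, 0 and 0 counts in WT and 1685, 11 and 1 in Npr1+/-. Its FPKM, a count scaled by transcript length and library size, was 216 in Npr1+/- 1 and at most 1.28 elsewhere. The granins, which fill dense-core vesicles, followed it at lower levels. Chga had 2, 2 and 1 counts in WT and 99, 0 and 0 in Npr1+/-. Chgb had 4, 4 and 1 counts in WT and 170, 3 and 0 in Npr1+/-, and Scg2 had 8, 1 and 2 in WT and 216, 2 and 0 in Npr1+/-. Scg3 was found in every library, at 31.7 to 75.2 counts outside Npr1+/- 1 and 147 in it. Peptides of other sympathetic neurons were rare, with 24 counts of Gal and 4 of Vip in Npr1+/- 1. Vip reached 3 counts in Npr1+/- 3 as well, so the libraries could not be told apart for it at this depth.

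Of the genes of vesicle release, Snap25, Syt1 and Rab3c were near the floor outside Npr1+/- 1. Snap25, a SNARE protein of the nerve terminal, had 6.06, 2.27 and 4.12 counts in WT and 560, 5.43 and 4.61 in Npr1+/-. Syt1, the calcium sensor of release, had 3, 1 and 2 counts in WT and 631, 6 and 0 in Npr1+/-. Rab3c reached 305 counts in Npr1+/- 1 and 2.19 to 4.82 elsewhere. Syp, Syn1 and Syn2, which encode proteins of synaptic vesicles, were found in all libraries. Their CPM in Npr1+/- 1 was 2.68, 4.92 and 5.17 times the highest other library. Rab3a, a vesicle GTPase, had 456, 618 and 764 counts in WT and 554, 581 and 699 in Npr1+/-, and Npr1+/- 1 lay within the range of the others.

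Cytoskeletal and RNA-binding genes of neurons made up the largest group, with 13 genes, all of them highest in Npr1+/- 1. Tubb3, the neuronal beta-tubulin, had 5, 11 and 5 counts in WT and 941, 20 and 8 in Npr1+/-. Prph, the intermediate filament of peripheral neurons, had 2, 6 and 13 counts in WT and 726, 18 and 10 in Npr1+/-. In both genes Npr1+/- 2 also lay above the 3 WT libraries in counts, and Npr1+/- 3 lay within their range. The neurofilament genes Nefl, Nefm and Nefh had 218, 205 and 126 counts in Npr1+/- 1 and at most 3 in any other library. Ina, a filament of the same class, had 55 counts in Npr1+/- 1 and 0 or 1 elsewhere. Elavl2 and Elavl4, neuronal RNA-binding proteins, had 141 and 89 counts there and at most 3 elsewhere. Stmn3 reached 216 counts in Npr1+/- 1 and 1 to 6 elsewhere, and Gap43, a protein of growing axons, 260 and 3 to 24. Elavl3 had 104 counts against 4.98 to 17.7. Uchl1, an ubiquitin hydrolase abundant in neurons, was high in all libraries, with an FPKM of 98.9 in Npr1+/- 1 and 61.9 to 78.6 elsewhere.

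Of the receptors on the neuron surface, Chrna3 was the one at 0 outside Npr1+/- 1. This nicotinic subunit had 315 counts in Npr1+/- 1 and 0 in each of the other 5 libraries. Taking 3 counts in a library as the floor, it was at least 100.2-fold higher in CPM. Its neighbour on chromosome 9, Chrnb4, had 7.56, 7.13 and 0 counts in WT and 145, 7.24 and 3.72 in Npr1+/-. The genes lie at chr9:55010117-55026562 and chr9:55028154-55048953. Ngfr, the low-affinity receptor of neurotrophins, had 10.2, 17.9 and 8.35 counts in WT and 938, 13.4 and 5.78 in Npr1+/-. Ret, the receptor that signals for the glial-derived neurotrophic factors, differed in that it was higher in all 3 Npr1+/- libraries. It had 61, 70 and 50 counts in WT and 488, 123 and 147 in Npr1+/-. Of the axonal adhesion proteins, Cntn1 had 71.1 counts in Npr1+/- 1 against 1.71 to 10 and Cntnap2 had 33 against 12 to 19.

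Per length, the order within Npr1+/- 1 was led by Npy, then Uchl1, Dbh (FPKM of 56.2), Th (39.0), Tubb3 (37.9), Stmn2 (32.4), Prph (28.2), Rab3a (26.7), Ngfr (18.9), Snap25 (18.2) and Slc6a2 (17.4). In the other libraries Uchl1 and Rab3a led with FPKM over 20, and Syp and Gata2 followed at 4.52 to 6.51 and 2.90 to 6.03. Th and Dbh stayed at or under an FPKM of 0.25 there. The 5 other libraries divided the set into 3 tiers. A group of 19 genes was found in all 5, 17 were found in 1 to 4 of them, and 10 stayed below 3 counts in each. The last 10 were Th, Hand1, Insm1, Gal, Chga, Elavl4, Nefl, Nefh, Ina and Chrna3. Vip, with 3 counts in Npr1+/- 3, and Slc18a1, Nefm and Elavl2, also with at most 3 counts, lay just inside the limit.

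**Figure D2:**
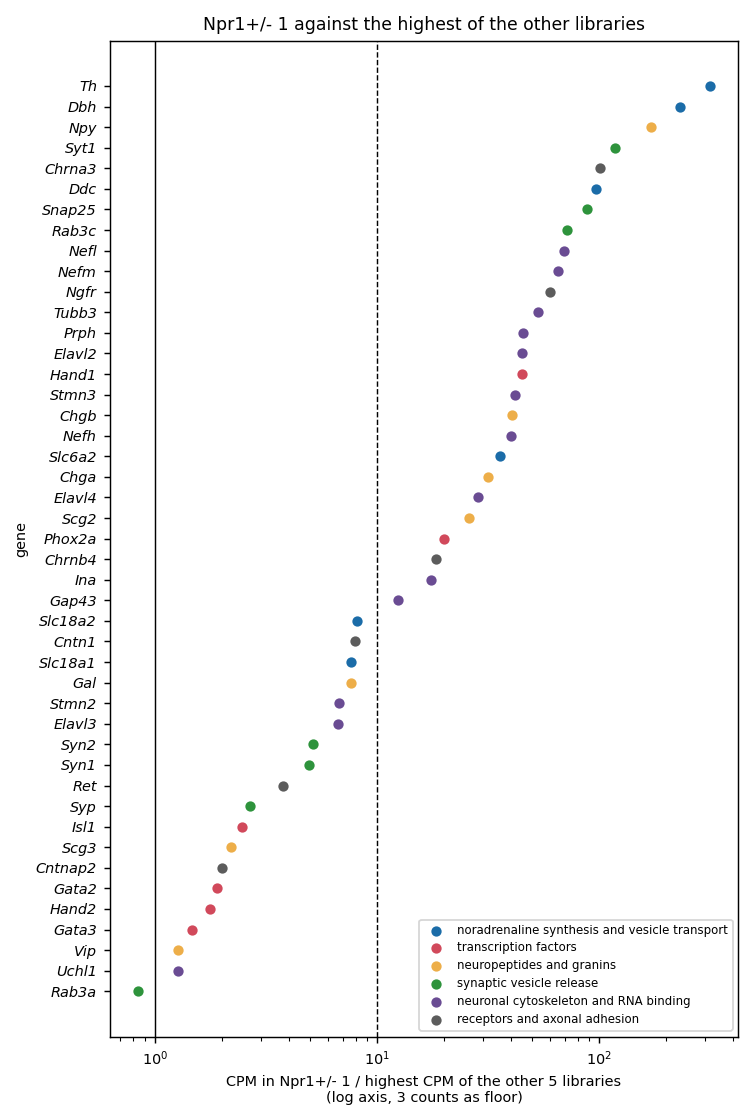
Ratio of the CPM in Npr1+/- 1 to the highest CPM of the other 5 libraries for 45 genes, on a log axis, with other libraries under 3 counts set to 3 counts, lines at 1 and 10 and colours for the roles. 26 genes lie to the right of 10 and Rab3a lies to the left of 1, and Insm1, with 0 counts in Npr1+/- 1, has no point.

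By the ratio of Npr1+/- 1 to the highest other library, with 3 counts as the smallest value of the others, 26 of the 46 genes were at least 10-fold and 34 at least 4-fold. The median ratio was 19.2, beside 0.828 over the 16570 genes with 3 counts in some library. At least 10-fold were 116 of these 16570 genes (0.700%). The set was chosen for this pattern, and nothing is read from the excess. Asked of each other library in the same way, the rule gave 0 or 1 gene among the 16570 and none of the 46. The 26 genes summed to 932 CPM in Npr1+/- 1, and to 7.14, 9.02 and 5.08 in WT and 11.3 and 5.58 in Npr1+/- 2 and 3. The other libraries thus held 0.545 to 1.21% of the level in Npr1+/- 1. Some of these genes reached 3 counts in each library, with 9, 11 and 10 of the 26 found in WT 1, 2 and 3 and 15 and 11 in Npr1+/- 2 and 3. The rest were below 3 counts there and cannot be told from absent.

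Outside the set, the 25 genes with the largest ratio among those with at least 50 counts in Npr1+/- 1 included several known from neurons. The largest ratio was that of Htr3a, a subunit of the serotonin-gated channel. It had 0, 0 and 0 counts in WT and 500, 3 and 1 in Npr1+/-. Htr3b, the partner subunit, had 100 counts in Npr1+/- 1 and 0 in the other 5 libraries, at least 31.9-fold higher. Rit2, Sult4a1 and Dpp6 were likewise at 0 in the other 5, with 136, 282 and 99 counts in Npr1+/- 1. The others included Nsg2, Slc10a4, Syt4, Cadps, Mapk8ip2, Pcsk1n, Celf6, Mapk10, Ppp2r2c, Vstm2l, Cplx1, Bex2, Cdk5r2, Entpd3, Pacsin1, Gng3, Drd2 and Cckar. Likeness here is the ratio alone, over 6 libraries.

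Not all genes of a sympathetic ganglion were found. Of a list of 16 further ganglion genes, 15 were found in Npr1+/- 1. At least 10-fold were 6 of the 16, beside 0.700% of the 16570 genes, and Htr3a, Htr3b and Cacna1b were among the 6. Cartpt, a peptide of some sympathetic neurons, had 2 counts. Sox11, a factor of early neurons, had 11 counts. Gfra2, a co-receptor of Ret, was no higher in Npr1+/- 1, with 141 counts against 106 to 239 elsewhere. Of the genes of cholinergic neurons, Chat had 1 count, Slc18a3 6 and Slc5a7 3 in Npr1+/- 1. Ache, which noradrenergic neurons and muscle also express, had 319 counts there and 42 to 74 elsewhere. The 3 defining cholinergic genes thus stayed at or near the floor in the library where Th had 987 counts.

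Genes of other cells with a related profile gave a mixed picture. Pnmt, which turns noradrenaline into adrenaline in the adrenal medulla, had 4, 7 and 10 counts in WT and 2, 7 and 12 in Npr1+/-, lowest in Npr1+/- 1. The other genes of the chromaffin list were highest in Npr1+/- 1. Penk had 417 counts in Npr1+/- 1 and 151 to 330 elsewhere, while Pcsk1n, Ptprn2 and Ptprn were 46.6, 16.1 and 6.52 times the highest other library. The list of 5 summed to 115.5 CPM in Npr1+/- 1 and 13.3 to 26.5 CPM elsewhere, and its part in the levels of the neuronal genes was not tested. The adrenal cortex list summed to 8.16 CPM in Npr1+/- 1 and 6.54 to 7.67 CPM elsewhere over its 6 genes in the table, with Cyp11b1 at 1 count and Nr5a1 at 0. Of 12 genes of sensory neurons, 5 were found in Npr1+/- 1, and Pou4f1, Prdm12, Calcb and Tac1 had 0 counts there. The list summed to 21.4 CPM in Npr1+/- 1 and 4.83 to 7.02 elsewhere. Avil, at 246 counts against 32 to 71, was the only one of the 12 at 2-fold or more. The central neuron list of 8 genes summed to 5.47 CPM in Npr1+/- 1 and 2.92 to 7.81 elsewhere, and Tbr1 was at 0 and Gad1 at 2 counts.

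Of 15 genes of satellite glia and Schwann cells, the cells that wrap neurons and axons, 11 were highest in Npr1+/- 1. With all libraries 13 of them were tested, of which 9 were higher and 4 lower in Npr1+/-. Their list of 15 genes summed to 493 CPM in Npr1+/- 1 and 236 to 276 CPM elsewhere. At least 2-fold were 10 of the 15, and at least 4-fold were 4, beside 4.84% and 1.70% of the 16570 genes. Fabp7, a marker of satellite glia, had 1, 7 and 5 counts in WT and 149, 5 and 5 in Npr1+/-. Sox10, the factor that defines the lineage, had 188 counts in Npr1+/- 1 and 28 to 57 elsewhere. None of the 15 genes was at 0 in any library. The part of these cells in the levels of the neuronal genes was not tested.

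**Figure D3:**
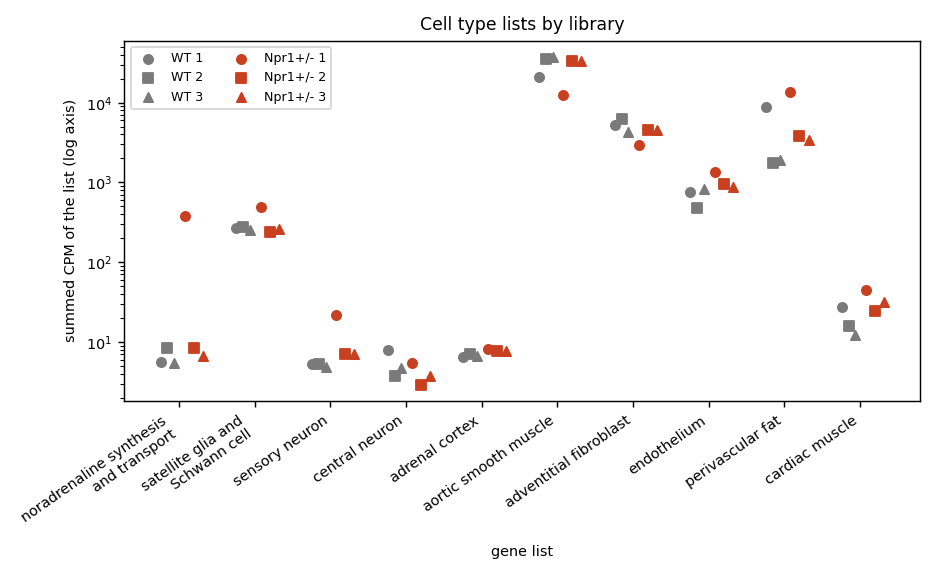
Summed CPM of 10 gene lists in each library, on a log axis, with WT in grey, Npr1+/- in red and the symbol for the replicate number. The 6 genes of noradrenaline synthesis and transport sum to 384 CPM in Npr1+/- 1 and 5.39 to 8.30 elsewhere. The glial, sensory, fat, endothelial and cardiac lists are also highest in Npr1+/- 1, as is, by a small margin, adrenal cortex (8.16 CPM against 6.54 to 7.67). Smooth muscle and fibroblast are lowest in Npr1+/- 1.

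The summed marker genes of several other cell types also differed in Npr1+/- 1. Smooth muscle genes summed to 12670 CPM there and to 21080 to 37360 CPM elsewhere, with none of the 7 genes at 0. Genes of perivascular fat summed to 13790 CPM in Npr1+/- 1, 8724 in WT 1 and 1740 to 3811 in the other 4 libraries. WT 1 was second in fat and second lowest in smooth muscle. The 46 neuronal genes summed to 196 CPM in it, to 178 to 205 over the libraries other than Npr1+/- 1, and to 1442 in Npr1+/- 1. Uchl1 and Rab3a, high in all libraries, made up 73.3 and 33.9 of the 196 CPM, so this sum says little of the other genes. Fibroblast genes were lowest in Npr1+/- 1 (2988 CPM, against 4350 to 6216) and endothelial genes highest (1367, against 482 to 957). Leukocyte genes were at 35.1 CPM, within the 18.0 to 35.7 of the others, and cardiac genes at 44.4 CPM against 12.1 to 31.2. The part of these differences in the neuronal genes was not tested. Npr1 itself (NCBI gene 18160, chr3:90450591-90465928) had 461.9, 612.2 and 627.3 CPM in WT and 294.3, 452.8 and 519.3 in Npr1+/-, lowest in the same library, and the groups overlapped.

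The 46 genes entered the test of the genotypes only in part. With edgeR's quasi-likelihood test over all 6 libraries, 20 of them passed the filter on low counts, and the other 26 were too low in too many libraries. The test called none of the 20 and none of the 13938 genes it covered (0%), with a call set at an adjusted p below 0.05 and a log2 fold change of 0.5 or more in size. At an unadjusted p under 0.05 were 7 of the 20 and 412 of all genes. DESeq2 called 16 of 16979 genes (0.0942%) and none of the 22 members to which it gave an adjusted p. It gave no p to 24 members, and to 80 genes in all, because a single library was an outlier. With that outlier filter turned off, DESeq2 called 23 of 18113 genes (0.127%). Th (adjusted p = 5.67e-06) and Chrna3 (adjusted p = 0.000189) were then among the calls of DESeq2, although 1 of the 6 libraries held nearly all of their counts, and 7 of the 23 genes were at least 10-fold in Npr1+/- 1. As the set was chosen on this contrast, these counts are a description. With the replicate number as a block in edgeR, none of the 20 members and none of the 13938 genes was called (0%), and 8 of the 20 members had an unadjusted p under 0.05, as did 1735 genes in all. The smallest adjusted p of a member by edgeR was 0.137 in this fit with the block and 0.999 without the block.

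Many fitted values of the 20 genes depended on Npr1+/- 1. Tubb3 had a log2 fold change of 5.63 with it and 0.95 (SE 0.62) without it. For Ngfr the values were 4.84 and −0.38 (SE 0.59), for Slc6a2 4.09 and −0.01 (SE 0.55), and for Gap43 3.30 and −0.14 (SE 0.91). For Slc18a2 they were 2.10 and 0.26 (SE 0.33), and for Hand2 0.61 and −1.66 (SE 0.92). Each of the 4 genes Ngfr, Slc6a2, Gap43 and Hand2 changed sign. Of the 20 genes, 3 (Stmn2, Elavl3 and Ret) had every Npr1+/- library above every WT library in CPM, as had 487 of the 13938 tested genes (3.49%). Phox2a, Gal, Elavl2 and Nefh, which were not tested, had the same order, with at most 6.40 counts outside Npr1+/- 1. Nefh had 1 count in WT 3 and 1 each in Npr1+/- 2 and 3, so only the scaling by library size set these apart. Npr1+/- 1 is among the Npr1+/- libraries, so nothing is read from these counts.

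Without Npr1+/- 1, the neuronal genes of Npr1+/- lay on both sides of WT. The comparison of Npr1+/- 2 and 3 with WT tested 14061 genes and called none (0%), with 353 at an unadjusted p under 0.05 by edgeR. DESeq2 called 12 of 17862 (0.0672%) and none of the 45 members it tested. Of the same 20 genes, 11 were higher and 9 lower, with a median log2 fold change of 0.03 beside −0.03 over all genes, where the median with all libraries had been 1.45 beside 0.01. Ret had the largest positive value at 1.10 (SE 0.26, unadjusted p = 0.00571), Stmn2 had 0.78 (SE 0.23, unadjusted p = 0.0137) and Syn1 −0.83 (SE 0.28, unadjusted p = 0.0260). None of the 3 held after adjustment (adjusted p = 0.999 by edgeR's quasi-likelihood test). In counts, Stmn2, a microtubule regulator of growing axons (NCBI gene 20257), had 71, 69 and 86 in WT and 148 and 121 in Npr1+/- 2 and 3, and 891 in Npr1+/- 1. Syn1 had 43, 63 and 57 in WT and 31 and 32 in Npr1+/- 2 and 3, so these libraries lay below WT, and 270 in Npr1+/- 1, above it.

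**Figure D4:**
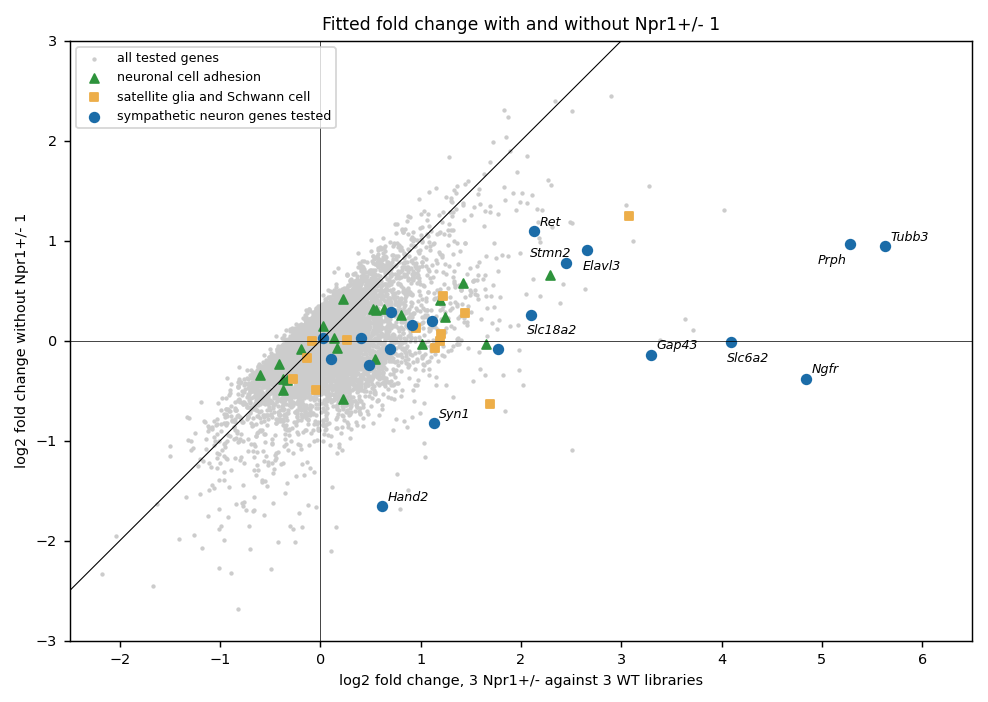
Log2 fold change of Npr1+/- against WT with all 6 libraries (horizontal) and without Npr1+/- 1 (vertical), for all genes tested in both (grey, 9 genes outside the axes), the 20 sympathetic neuron genes tested and 2 lists of other genes, with the line of equality. Tubb3, Prph, Ngfr, Slc6a2 and Gap43 lie far to the right of the line, and on the vertical axis Ret, Prph, Tubb3, Elavl3 and Stmn2 lie at 0.78 to 1.10.

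Other genes were compared in the same pair of fits. At a log2 fold change of 1 or more with all libraries were 344 of the 13938 tested genes (2.47%). Without Npr1+/- 1, 252 of them (73.3%) fell below 1 and 92 stayed. Some fall is built into a choice made with all libraries, and leaving out Npr1+/- 2 or 3 lowered 9 and 12 of the 344 below 1, and leaving out WT 1, 2 or 3 lowered 28, 91 and 90. Of the 344, 57 (16.6%) were at least 4-fold in Npr1+/- 1, and 12 were members, of which Ret alone stayed at 1 or more. Beside the members, 90 genes were at least 10-fold and 248 at least 4-fold in that library.

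Adhesion genes of neurons went in both directions. The list of 37 summed to 679 CPM in Npr1+/- 1 and 696 to 916 elsewhere, with a median ratio to the highest other library of 1.16. At least 4-fold in Npr1+/- 1 were 7 of the 37, beside 1.70% of the 16570 genes. Ncam1, the most abundant of them in counts, had 2476 counts there and 4846 to 8521 elsewhere. Chl1, a neuronal cell adhesion molecule of the L1 family, had 269 counts there and 25 to 49 elsewhere, and its log2 fold change was 1.65 with and −0.03 without that library. L1cam had 589 counts there against 119 to 219, with log2 fold changes of 1.42 and 0.58. Nrcam had 142 against 11 to 33.3, with 2.29 and 0.66. Cntn3 reached 43.0 counts against at most 3.56, and Astn1 106 against at most 6. Cntn5 had 19 counts against 0 in all others, at least 6.05-fold higher. Of the 22 of these genes tested with all libraries 6 were at 1 or more, and of the 24 tested without Npr1+/- 1 none was. None was called in either fit (edgeR), with 2 and 1 at an unadjusted p under 0.05.

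The list of 22 ion channels of neurons summed to 269 CPM in Npr1+/- 1, within the 227 to 356 of the others. At least 4-fold in Npr1+/- 1 were 4 of the 22 and at least 2-fold 12, beside 1.70% and 4.84% of the 16570 genes. Scn9a, a sodium channel of peripheral neurons, had 0, 0 and 0 counts in WT and 74.3, 3.10 and 0 in Npr1+/-. P2rx2, an ATP-gated channel, had 0, 0 and 0 counts in WT and 36, 1 and 2 in Npr1+/-. Kcna1, which Schwann cells also express, had 662 counts in Npr1+/- 1 against 83 to 203. Kcnh2, a channel of the same list that muscle also expresses, ran the other way, with 794 counts in Npr1+/- 1 and 1346 to 2575 elsewhere. At a log2 fold change of 1 or more were 3 of the 14 tested, and 1 of 14 without that library (Scn3a, 1.32 with and 1.10 without it).

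The 7 focal adhesion genes that the study picked from these libraries (Vtn, Itgb4, Col6a5, Col6a6, Tnr, Thbs4 and Parvg) were not among the genes at 4-fold. Vtn was 3.08 times the highest other library in Npr1+/- 1, Thbs4 2.76 and Col6a5 2.49. Itgb4, an integrin of epithelium and endothelium, was 1.61 times, and its log2 fold change was 1.36 with and 0.98 without that library. Of the 6 tested, 5 were at 1 or more with all libraries and 3 without Npr1+/- 1. None was called by edgeR, which called none of the 13938 genes tested with all libraries, so this is not particular to them. At an unadjusted p under 0.05 by edgeR were 4 of them with all libraries and 2 without Npr1+/- 1. The study had picked the genes with DESeq2, at a log2 fold change of 1 or more in size and a q value under 0.05. Its evidence for Itgb4 also came from protein staining, Western blots and knockdown, which these libraries do not address.

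All 18 genes listed for the cofactors, breakdown and receptors of noradrenaline were found in every library. Of the list of 18, 17 were tested and none was called (edgeR). With all libraries 15 were higher and 2 lower, and without Npr1+/- 1 10 were higher and 7 lower. Adra2a, an alpha2 receptor, had the lowest unadjusted p of the list, with 16, 34 and 78 counts in WT and 141, 110 and 96 in Npr1+/-, and the groups did not overlap. Its log2 fold change was 1.504 (SE 0.52) with and 1.26 (SE 0.54) without Npr1+/- 1, at an unadjusted p of 0.0237 and 0.0603 by edgeR. Adra2c had 8, 35 and 33 counts in WT and 57, 59 and 48 in Npr1+/-. Adrb3, the beta receptor of fat, had 2257, 992 and 1274 counts in WT and 5530, 2834 and 1536 in Npr1+/-. Gch1, which makes the cofactor of Th, had 202 counts in Npr1+/- 1 and 63 to 93 elsewhere, 2.43 times the highest other library in CPM.

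Growth factors that vessels supply to their nerves gave no such pattern. Ntf3, a neurotrophin, had 502, 1067 and 1219 counts in WT and 299, 997 and 1073 in Npr1+/-, lowest in Npr1+/- 1. Ngfr, which binds neurotrophins, had 938 counts in the same library. Of the list of 8 factors 6 were tested with all libraries, 2 were higher and 4 lower, and none was called by edgeR, with 0 at an unadjusted p under 0.05. Artn and Nrtn, ligands of Ret, had 21 and 258 counts in Npr1+/- 1, below the 40 to 104 and 383 to 646 of the other libraries.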

How the data were processed

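RNA of the aorta was measured in 3 WT and 3 Npr1+/- libraries, grouped and numbered as in the sample labels (the file columns call the second group knockdown). Reads were cleaned by the authors with SOAPnuke, placed on coding genes with Bowtie2 and turned into gene levels with RSEM (build mm10 in the submitters' processing notes, which also name DESeq2 1.4.5). They deposited estimated counts of 18191 genes, not normalized, and FPKM, scaled by transcript length and library size. The 4 columns of the authors' group means were not used. Symbols came from RefSeq on GRCm38.p6 for 18070 genes, as did positions and promoters. A read that fits several genes was shared out by RSEM, so counts need not be whole.

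Estimated counts were rounded and tested with R 4.3.3 and edgeR 4.0.16 (TMM, filter with a minimum count of 10, quasi-likelihood test, Benjamini-Hochberg adjustment over all genes tested), and calls required an adjusted p below 0.05 together with a log2 fold change of 0.5 or more in size, the thresholds of the study. DESeq2 1.42.0 was the other tool. The scripts were tested on simulated data. CPM were scaled by TMM, and 3 counts served as the floor of ratios. Totals of 13510970 to 16664343 counts limit the precision at low counts, and intervals cover counting error only. The 46 genes and the other gene lists were chosen with earlier results of these data known. Named were all 46 genes, the 25 other genes with the largest ratio of Npr1+/- 1 to the highest other library, and genes of the lists, of which a few are not reported here. Deviations from the group mean of same-numbered WT and Npr1+/- libraries correlated at 0.647, 0.394 and 0.232, and those of differently numbered ones at −0.584 to 0.443. WT 3 with Npr1+/- 2, at 0.443, thus exceeded the same-numbered libraries 2 and 3. The labels do not say that libraries are paired, and the number served as a block only in an alternative fit. The alternatives were other size factors, no filter, no minimum fold change, the replicate block, FPKM, other floors and folds, and leaving out each library. DESeq2 without its outlier filter was added after seeing the data.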

Additional observations from a re-analysis of the deposited data

How the results depend on the processing

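No member was called under any alternative planned for either comparison, and with DESeq2 without its outlier filter (chosen after seeing the data) 2 were. Over all genes the count of calls went from 0 to 16 with DESeq2 and to 23 without its outlier filter. Without Npr1+/- 1 it went from 0 to 12 with DESeq2 and to 32 with the replicate block (replicates 2 and 3 of both groups, none of them a member), and ranged from 0 to 1 when each of the 5 libraries was left out, with the 1 call arising without WT 1. The replicate block changed no other call. Genes at least 10-fold in Npr1+/- 1 numbered 116, and 282 at 4-fold. Members at least 10-fold numbered 26 with TMM, with size factors and with FPKM, 34 at 4-fold and 27 with a floor of 1 count. Of 219 alternative log2 fold changes of the 20 members tested, 207 kept their direction and 12 reversed, all on leaving out a library. Left out in turn, the libraries gave ranges of −0.0144 to 4.65 for Slc6a2, −1.66 to 1.88 for Hand2, −0.0841 to 1.10 for Scg3, −0.83 to 1.60 for Syn1, −0.0864 to 2.24 for Syn2, −0.19 to 0.22 for Uchl1, −0.14 to 3.86 for Gap43, −0.38 to 5.43 for Ngfr and −0.24 to 0.75 for Cntnap2, each lowest without Npr1+/- 1, and −0.0866 to 0.16 for Rab3a, lowest without WT 1. The fit without WT 2 gave no value for Gap43, which failed the filter. Members under 3 counts cannot be told from absent at this depth.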
